A study of Mus musculus with 24 samples.

Results

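Testes of *Atad2* knockout (KO) mice on postnatal day 22 were set against testes of wild-type (WT) mice on postnatal day 24, a pairing shifted by 1 sampled time point along the first wave of spermatogenesis. The members were chosen by sample label alone: all 4 KO libraries of day 22 and both WT libraries of day 24, 6 of the 24 libraries of the series, with all genes and raw counts. The KO males were homozygous for an allele in which a *lacZ* cassette was spliced to exon 11 of *Atad2* and exon 12 was removed by a Cre recombinase driven ubiquitously from the CMV promoter, so every cell type carried the lesion. The WT males carried no targeted allele, and no agent was given to either group. The other libraries of the series were WT and KO testes of days 20, 22, 24 and 26, and they were used here for the spread between replicates and for placing the 6 libraries. Genotype and age both differ between the 2 groups and cannot be told apart in this comparison alone. Beside many of the main values therefore stand those of the same KO libraries against WT of day 22. Values of KO of day 24 against the same WT libraries are given beside many of them as well. Libraries are named by genotype, day and replicate, as in KO_d22_1.

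ATAD2 is a nuclear protein with an AAA+ ATPase domain and a bromodomain that reads acetylated histones, and it is most abundant in embryonic stem cells and male germ cells. In the first wave, germ cells enter meiosis as one cohort, pachytene spermatocytes accumulate, and round spermatids then appear and switch on the genes of the acrosome, the sperm tail and, later, the transition proteins and protamines that replace histones. In whole testis RNA the level of a spermatid gene therefore reports how far the cohort has come. Fewer cells of a type and less RNA per cell cannot be told apart in such bulk samples.

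The counts assigned to genes summed to 14353910 to 16970714 per library in the KO group, and to 14422506 and 16556618 in the WT group. Library KO_d22_4 stood apart from the other KO libraries: pairs with several alignments made up 4.74% of its table, against 7.99% to 8.50% in the other 3, and the summed level of its mitochondrially encoded genes was 22791 CPM (counts scaled to library size), against 41676 to 50276 CPM. Library WT_d24_2 was high in genes known from the epididymis. The summed CPM of an epididymis list was 819, against 4.59 in WT_d24_1, 135 in KO_d22_1 and 4.68 to 6.13 in the other 3 KO libraries. Libraries of the side-by-side groups were high in it too, up to 539 in WT of day 22 and 163 in KO of day 24. Of that list, *Lcn8*, *Lcn9*, *Lcn10* and *Defb18* were at 0 in all 6 libraries. No 2 libraries of a group agreed within sampling noise, and the replicates are biological by the study's methods, although no source used here ties each library to its own animal, so p-values measure the spread between these libraries. The samples are labelled testis and the methods describe harvested testes, but the labels' protocol also mentions purified spermatogenic cell fractions. In these data 22 Sertoli and 13 Leydig cell genes passed the filter on low counts.

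The targeted gene was examined first. *Atad2* (chr15:58094044-58135082, minus strand, mm10) was at 33.8, 45.3, 41.1 and 35.3 CPM in the 4 KO libraries and at 132 and 106 CPM in the WT libraries. Every KO library lay below every one of the 12 WT libraries of the series, whose lowest value was 76.1 CPM. The log2 fold change of KO day 22 minus WT day 24 was -1.62 (SE 0.21, adjusted p = 0.000298, edgeR), a level 3.07-fold lower. Against WT of day 22 it was -1.12, and KO of day 24 against the same WT libraries gave -1.43. Pairs were still counted to the gene in KO, and the counts are by gene, so the exons they came from are not known.

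Across the genome, 130 of 17170 tested genes (0.757%) were called changed at an adjusted p under 0.05, with 122 lower (0.711%) and 8 higher (0.0466%) in KO of day 22. At an unadjusted p under 0.05 there were 2301 genes. The median log2 fold change of all tested genes was -0.03. In 118 of the 122 lower genes the KO libraries all lay below both WT libraries, as they did in 12.2% of all tested genes. In the 8 higher genes the KO libraries all lay above both WT libraries, as in 10.1% of all tested genes. These counts come from the libraries that gave the calls, so the separation was largely fixed by the call and tests nothing further. For 47 of the lower genes the 4 KO libraries lay below all 12 WT libraries of days 20 to 26, which held for 0.6% of tested genes, and for 2 of the higher genes they lay above all 12, which held for 0.0815%. Both WT libraries of day 24 are among the 12, so these counts too were fixed in part by the call. At 7 of the lower genes every KO library had 3 counts or fewer. The median log2 fold change of the 122 was -1.81, and -1.80 with those 7 at their bound of 3 counts per library. At the edge of the call, *Col1a1* passed with an adjusted p of 0.0492 and *Tagln2* missed it with 0.0501.

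**Figure D1:**
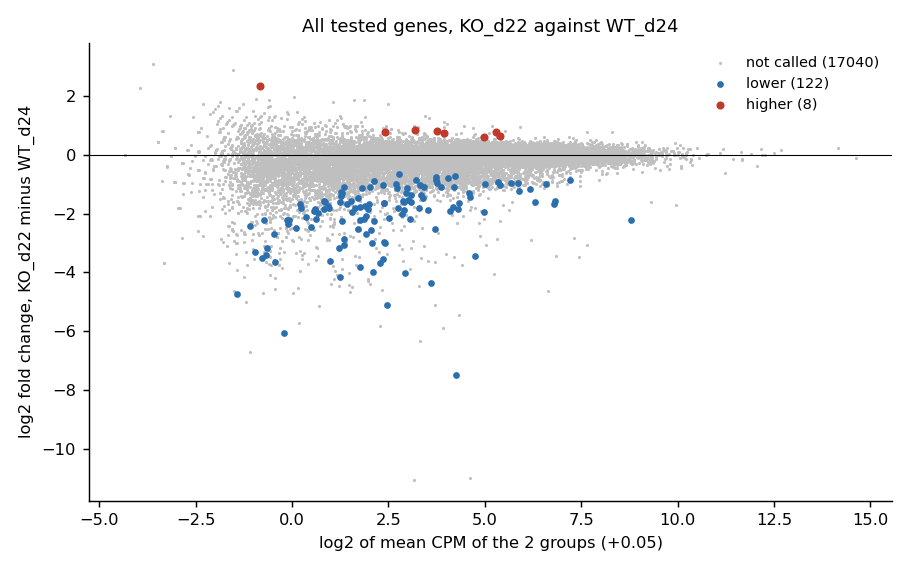
Each point is 1 of the 17170 tested genes, with the log2 of the mean CPM of KO_d22 and WT_d24 on the horizontal axis and the log2 fold change, KO_d22 minus WT_d24, on the vertical axis. The 122 genes called lower (blue) are spread over the range of levels, and the 8 genes called higher (red) lie at log2 fold changes of 0.61 to 0.86 except *1700120C14Rik* at 2.34.

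A small set of genes was low in KO of day 22 beside WT of either day. *Asb4* (chr6:5383386-5433022, plus strand), an ankyrin repeat and SOCS box protein that serves as an adaptor of ubiquitin ligases, was at 4.05, 7.09, 3.10 and 3.55 CPM in KO and at 47.1 and 50.7 CPM in WT. The groups were far apart, with a log2 difference of -3.45 (SE 0.33, adjusted p = 8.13e-06). Against WT of day 22 the same KO libraries gave -3.56, and KO of day 24 against the same WT libraries gave -2.79.

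The long non-coding RNA gene *A330076C08Rik* (chr13:44185760-44216487, minus strand) was at 1.27, 1.38, 0.725 and 1.27 CPM in KO and at 9.43 and 9.44 CPM in WT. Its log2 fold change was -3.01 (SE 0.28, adjusted p = 4.67e-06). A second long non-coding RNA gene, *4933406K04Rik* (chr12:106685607-106716362, minus strand), was at 0.363, 1.38, 0.527 and 0.469 CPM in KO and at 9.25 and 8.69 CPM in WT, a log2 fold change of -3.68 (SE 0.34, adjusted p = 4.67e-06). The naming rule kept only genes whose 2 groups do not overlap. For both genes the KO libraries also lay below all 12 WT libraries of the series. *2900060B14Rik* was the next Gm or Rik gene by fold among those without overlap whose higher group averages at least 2 CPM. It was at 0.134 to 1.997 CPM in KO and at 9.06 and 4.96 CPM in WT (-2.57, SE 0.59, adjusted p = 0.044). Its call was lost in 17 of 24 fits without 1 library. *Arfgef3*, of a family of ARF guanine nucleotide exchange proteins, was at 4.24, 4.99, 3.36 and 7.24 CPM in KO and at 17.996 and 18.3 CPM in WT (log2 fold change -1.87, SE 0.24, adjusted p = 0.000298). *Mdga2*, a membrane-anchored adhesion protein of synapses, was at 3.03, 5.29, 3.56 and 2.75 CPM in KO and at 10.6 and 11.1 CPM in WT (-1.57, SE 0.21, adjusted p = 0.000465). *Asb4*, *A330076C08Rik*, *4933406K04Rik*, *Arfgef3* and *Mdga2* form the list, which was picked from the same-day comparisons of these libraries. That all 5 were called lower here is therefore not independent evidence of their direction. Their median log2 fold change was -3.01 against WT of day 24 and -3.06 against WT of day 22.

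The RefSeq sequences of the 250 bases before the start of 3 of these genes are shown because the genes share the direction while their start regions differ in CpG content. For *Arfgef3* the 2 annotations disagree: by GENCODE the gene reaches to position 18743949, so part of its RefSeq window lies inside the gene. They are written 5' to 3' on the strand of the gene in build GRCm38.p6, with CpG dinucleotides in capitals.
Asb4, chr6:5383136-5383385, plus strand, 4 CpG: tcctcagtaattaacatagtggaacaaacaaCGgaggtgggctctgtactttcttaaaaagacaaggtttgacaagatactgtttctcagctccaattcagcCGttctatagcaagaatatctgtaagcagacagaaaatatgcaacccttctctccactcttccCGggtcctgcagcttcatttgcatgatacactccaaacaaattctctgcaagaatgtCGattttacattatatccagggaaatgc
A330076C08Rik, chr13:44216488-44216737, minus strand, 8 CpG: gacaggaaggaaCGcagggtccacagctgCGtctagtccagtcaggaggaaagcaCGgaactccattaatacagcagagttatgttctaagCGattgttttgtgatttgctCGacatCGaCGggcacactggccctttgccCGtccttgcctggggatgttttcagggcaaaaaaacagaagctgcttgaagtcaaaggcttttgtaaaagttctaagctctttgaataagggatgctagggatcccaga
Arfgef3, chr10:18743759-18744008, minus strand, 18 CpG: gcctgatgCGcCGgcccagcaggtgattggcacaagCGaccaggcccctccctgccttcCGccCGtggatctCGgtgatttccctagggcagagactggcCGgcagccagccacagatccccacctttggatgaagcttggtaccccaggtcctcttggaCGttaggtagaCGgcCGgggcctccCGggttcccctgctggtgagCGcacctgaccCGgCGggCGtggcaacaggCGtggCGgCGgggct
Of the 122 lower genes, 78 had a RefSeq window of 300 bases (250 before the start and 50 after). Their median was 9 CpG, against 18 over the 12861 tested genes with a window. The letters TATAAA on either strand stood in 14.1% of the 78 windows and in 8.02% of all, and the letters TGACGTCA in 2.56% and 2.98%. These are descriptions of the windows.

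**Figure D2:**
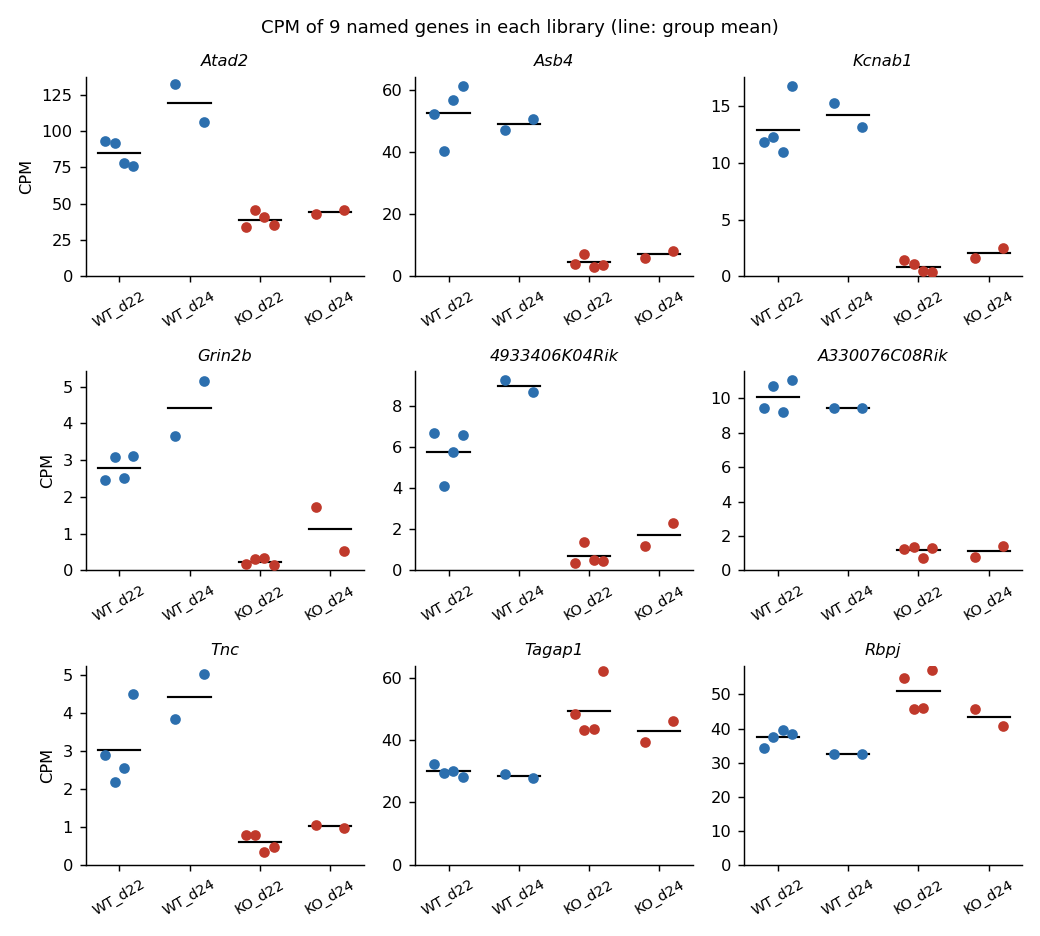
CPM of 9 named genes in each library of WT_d22, WT_d24, KO_d22 and KO_d24 (blue, WT; red, KO; black line, group mean), on axes that start at 0. For the 7 genes called lower, the 4 KO_d22 points lie below all WT_d24 and WT_d22 points, and for *Tagap1* and *Rbpj* they lie above them.

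Several of the named lower genes encode receptors and channels known from nerve cells, each at a low level, and they were grouped here after their values were seen. *Grin2b*, a subunit of the NMDA glutamate receptor, was at 0.182, 0.301, 0.330 and 0.134 CPM in KO and at 3.66 and 5.16 CPM in WT, a log2 fold change of -4.17 (SE 0.63, adjusted p = 0.00132). *Kcnab1*, a regulatory subunit of voltage-gated potassium channels, was at 1.45, 1.08, 0.461 and 0.402 CPM in KO and at 15.3 and 13.2 CPM in WT (-4.03, SE 0.75, adjusted p = 0.016). *Scn3a*, the pore-forming subunit of a voltage-gated sodium channel, was at 0.908, 0.421, 0.395 and 0.335 CPM in KO and at 4.59 and 4.28 CPM in WT (-3.08, SE 0.37, adjusted p = 0.000131). The rule that named these 3 kept only genes whose groups do not overlap, so their separation was fixed by the choice. *Grik2*, a kainate-type glutamate receptor subunit, was named after its values were seen. It was at 1.81 to 3.56 CPM in KO and at 12.5 and 10.5 CPM in WT (-2.02, SE 0.28, adjusted p = 0.000525). Against WT of day 22 the 4 genes gave -3.51, -3.90, -2.86 and -2.02 in the same order, each called there as well. KO of day 24 against the same WT libraries gave -1.97 for *Grin2b*, -2.80 for *Kcnab1* and -2.13 for *Scn3a*, none of them called, and -1.97 for *Grik2*, which was. The receptor tyrosine phosphatase gene *Ptpro*, also chosen after its values were seen, fell by 2.17 on the log2 scale (SE 0.26, adjusted p = 0.000131). Its 2 WT libraries differed, at 7.94 and 19.2 CPM, and without WT_d24_2 the value was -1.35.

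The day 20 and day 26 comparisons of KO with WT share no library with these 6, although all groups share 1 estimate of the spread. At day 20, 102 of the 122 lower genes were below WT (83.6%, against 48.9% of all tested genes), and 23 were called lower, where 0.361% of all tested genes were (3.34% in either direction). *Tmem246*, 1 of the 122, was called higher there (0.47 at day 20, -0.74 here). At day 26, 108 of the 122 were below WT (88.5%, against 54.3% of all), and 8 were called lower, against 0.0466% of all tested genes. Those 8 are all of the genes called at day 26 and include *Asb4*, *Arfgef3*, *Mdga2*, *Ptpro*, *A330076C08Rik* and *4933406K04Rik*. All of these but *Ptpro* form the list that was picked because they were lower in the same-day comparisons of every day. Their calls at days 20 and 26 were thus fixed by that choice. In all, 25 of the 122 were called lower at day 20, day 26 or both, and 97 at neither. Among the 25 were *Nps*, the neuropeptide S precursor (-2.74 at day 20 and -2.26 at day 26, against -2.50 here), and *H2afy3*, annotated as a processed pseudogene, whose counts are uncertain because of its parent gene (-1.84, -1.63 and -1.59).

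Genes of the extracellular matrix were examined through a list of collagens and laminins. Of the 18 tested genes of that list, 4 were called lower (22.2%, against 0.711% of all genes) and all 18 were below WT, with a median log2 fold change of -1.04 beside -0.03 for all genes. *Col1a1*, the main fibrillar collagen of connective tissue, was at 277, 102, 172 and 75.6 CPM in KO and at 509 and 960 CPM in WT (-2.23, SE 0.51, adjusted p = 0.0492). *Col6a2*, a chain of the microfibrillar collagen, was at 83.1, 36.2, 62.4 and 30.2 CPM in KO and at 136 and 203 CPM in WT (-1.67, SE 0.38, adjusted p = 0.0426). *Col5a1* (-1.17) and *Col6a3* (-1.56) were called too. KO of day 24 against the same WT libraries gave the list a median of -0.51 with no call, and KO of day 22 against WT of day 22 gave -0.88 with 7 called lower (1.25% of all tested genes were). Outside the list, *Col14a1* (-1.93), *Col19a1* (-1.81) and *Col25a1* (-0.90) were called lower, and *Col19a1* was still called without WT_d24_2. The 2 groups did not overlap in the list's summed CPM, which was 1455 to 3560 in KO and 4482 and 6899 in WT. KO_d22_4, the library with few multiply aligned pairs, was the lowest and WT_d24_2, where the epididymis list was highest of the 6, the highest. With KO_d22_4 or WT_d24_2 left out no list member was called, as in 12 of the 24 fits without 1 library, while without KO_d22_1 10 were. Without WT_d24_2 the log2 fold changes were -1.66 for *Col1a1*, -1.31 for *Col6a2*, -0.92 for *Col6a3* and -0.69 for *Col5a1*, and without KO_d22_4 they lay between -1.999 and -1.015.

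Other matrix genes are described next. They were picked from the genes called lower, so their shared direction was fixed by the choice. *Cilp*, a protein of cartilage matrix that the naming rule selected, was at 1.57, 0.601, 0.791 and 0.670 CPM in KO and at 8.44 and 6.39 CPM in WT (-3.01, SE 0.35, adjusted p = 0.000131). *Tnc*, the matrix glycoprotein tenascin C, was at 0.330 to 0.787 CPM in KO and at 3.85 and 5.03 CPM in WT (-2.88, SE 0.38, adjusted p = 0.000347). *Fbln2* (-2.15), *Gpc3* (-1.91), *Mmp2* (-1.79), *Tnxb* (-1.63) and *Hmcn1* (-1.42) were also called lower. Against WT of day 22 the same 7 genes gave values between -2.89 and -1.28. In KO of day 24 against the same WT libraries none of the 7 was called: *Tnc* gave -2.13, *Hmcn1* -0.98, *Cilp* and *Gpc3* -0.93 each, *Tnxb* -0.77, *Mmp2* -0.58 and *Fbln2* -0.53. At day 26 none was called, with *Tnc* at -1.41, *Hmcn1* and *Gpc3* at -0.79 each, *Tnxb* at -0.75, *Cilp* at -0.46, *Mmp2* at -0.06 and *Fbln2* at 0.34, and at day 20 *Tnc* was called lower (-1.16). The call of *Cilp* and of *Tnc* held with each of the 24 libraries left out in turn.

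Small structured RNAs were low together, a group formed after their values were seen. All 29 tested small nucleolar RNAs (snoRNAs), which guide chemical modification of ribosomal RNA, were below WT (54.3% of all tested genes were), and 5 were called lower (17.2%, against 0.711% of all), with a median log2 fold change of -2.40 (-2.37 with the 4 genes at or under 3 counts in every KO library set to their bound). *Snord67*, *Snord8* and *Snora47* were called with 3 counts or fewer in every KO library. *Snord104* (chr11:106500993-106501062) was at 1.15, 0.301, 0.330 and 0.201 CPM in KO and at 8.94 and 7.13 CPM in WT (-3.98, SE 0.53, adjusted p = 0.000372). *Snord32a* (chr7:45127382-45127464) was at 0.198 to 0.421 CPM in KO and at 4.72 and 2.45 CPM in WT (-3.62, SE 0.56, adjusted p = 0.00183). *Rnu11*, the U11 RNA of the minor spliceosome, was at 0.198 to 1.69 CPM in KO and at 10.7 and 8.08 CPM in WT (-3.56, SE 0.74, adjusted p = 0.0286). The summed CPM of the snoRNAs was 217, 177, 200 and 57.1 in KO and 335 and 339 in WT, with KO_d22_4 lowest. It was 236 to 319 in WT of day 22, 268 and 384 in KO of day 24, and ranged from 169 to 1671 within WT of day 20. The median of the list was -1.19 against WT of day 22 and -0.26 for KO of day 24 against WT of day 24. With WT_d20_2 left out 12 snoRNAs were called, and with either WT library of day 24 left out 2 were.

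Another set of lower genes rested on 1 WT library. Of the 122, 6 were over 4-fold higher in WT_d24_2 than in WT_d24_1 (1.45% of all tested genes were), and none of the 6 was called without WT_d24_2. *Pck1*, an enzyme of gluconeogenesis that is strong in fat, liver and kidney, was at 0.745 CPM in WT_d24_1 and at 20.7 CPM in WT_d24_2, with 0.0670 to 0.605 CPM in KO (log2 fold change -5.12, adjusted p = 0.0203, and -1.25 without WT_d24_2). *Defb30*, a beta-defensin of the epididymis, was at 0.931 and 11.7 CPM in WT and at 0.201 to 0.847 CPM in KO (-3.82, and -1.03 without WT_d24_2). The other 4 were *Spint5*, *Pnpla3*, *AY761185* and *Adrb3*, and the last 2 had no count in WT_d24_1. The epididymis list as a whole had 7 tested genes, none called, and a median log2 fold change of -2.66, with *Spink11* at 39.1 CPM in WT_d24_2 and at 0 in WT_d24_1.

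Of the 8 higher genes, 7 had log2 fold changes of 0.61 to 0.86. *Tagap1*, a GTPase-activating protein gene of chromosome 17 (6955011 to 6961156), was at 48.3, 43.4, 43.8 and 62.3 CPM in KO and at 29.3 and 28.0 CPM in WT (log2 fold change 0.79, SE 0.17, adjusted p = 0.0304). Its 4 KO libraries were above all 12 WT libraries. *Tagap*, a related gene that can share reads with it, went the other way, at 0.536 to 2.18 CPM in KO and at 8.94 and 9.58 CPM in WT (-2.96, SE 0.58, adjusted p = 0.0199). Pairs that aligned to several places were not counted, so the values of such related genes are uncertain. *Rbpj*, the DNA-binding effector of Notch signalling, was at 45.8 to 57.3 CPM in KO and at 32.6 and 32.5 CPM in WT (0.65, SE 0.13, adjusted p = 0.0224). *Hepacam2* (0.86), the zinc finger gene *Zfp93* (0.82), *9430018G01Rik* (0.77), the mitochondrial carrier gene *Slc25a45* (0.73) and *1700024P16Rik* (0.61) made up the rest with *1700120C14Rik*, whose fitted log2 fold change was 2.34 on 12 to 15 counts in KO and 2 and 3 counts in WT, so that its size is uncertain. When single libraries were dropped, none of the 8 kept its call throughout, and the most stable was called in 21 of 24 fits.

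How far the KO testes had come along the wave was read from an axis built on other libraries. It used the genes called between WT of day 26 and WT of day 20, 4183 that rose (24.4% of tested genes) and 3109 that fell (18.1%), 42.5% together, and was scaled to 0 at the mean of WT day 20 and 1 at the mean of WT day 26. The KO libraries of day 22 lay at 0.43, 0.76, 0.56 and 0.50, and the WT libraries of day 24 at 0.77 and 0.72. The mean was 0.56 ± 0.14 (SD, n = 4) in KO of day 22 and 0.75 ± 0.03 (SD, n = 2) in WT of day 24, a difference of -0.18 (exact two-sided permutation test over 15 splits, p = 0.267). The smallest p these numbers allow is 0.0667, so the test could not pass 0.05, and 1 KO library lay within the WT values. WT of day 22 lay at 0.43 ± 0.06 (SD, n = 4). KO of day 22 was 0.13 above it (exact two-sided permutation test, p = 0.0857, smallest possible 0.0286). KO of day 24 lay at a mean of 0.78, which was 0.04 above WT of day 24. KO_d22_2 lay within the 2 WT libraries of day 24, KO_d22_1 and KO_d22_4 within the range of WT day 22, and KO_d22_3 in between. Over all tested genes, KO_d22_2 and KO_d22_3 were nearest to the mean of WT day 24, at a root mean square log2 difference of 0.55 and 0.58, and KO_d22_1 and KO_d22_4 were nearest to WT day 22, at 0.41 and 0.62. The nearest day was not sharply set: KO_d22_3 was at 0.59 from WT day 22 and KO_d22_2 at 0.57 from WT day 26. WT_d24_1 itself was at 0.57 from the mean of WT day 26 and at 0.65 from WT_d24_2. The last value is a distance to 1 library and not to a mean, so the 2 are not strictly comparable.

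**Figure D3:**
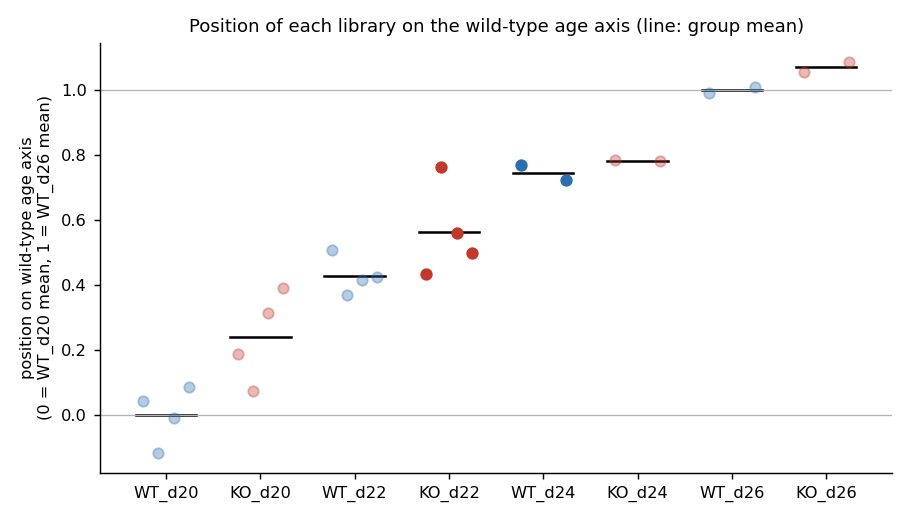
Position of each of the 24 libraries on the WT age axis (vertical, 0 at the mean of WT_d20 and 1 at the mean of WT_d26) by group (blue, WT; red, KO; black line, group mean; KO_d22 and WT_d24 in full colour). The 4 KO_d22 libraries run from 0.43 to 0.76, and only the highest reaches the WT_d24 libraries at 0.72 and 0.77.

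The genes of the axis moved little by little rather than by calls. The 4183 genes that rise with age had a median log2 fold change of -0.30 in KO of day 22 against WT of day 24, and 84.3% of them were below WT. The same genes gave 0.16 against WT of day 22, and WT of day 24 against WT of day 22 gave 0.40. The 3109 genes that fall with age had a median of 0.13, and 28.8% were below WT. Of the 122 lower calls, 35 (28.7%) were genes that rise with age, near their 24.4% share of all tested genes, 13 (10.7%) were genes that fall, against 18.1% of all, and 74 (60.7%) were called neither way, near the 57.5% of all. The gene-level test of WT day 24 against WT day 22, which is the difference between the KO day 22 comparisons with those 2 days, called 1017 genes (5.92%), 1010 of them higher (5.88%) and 7 lower (0.0408%) on day 24.

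No gene of the spermatid lists was called, where 0.757% of all tested genes were, so that no call in lists of this size is near the background. Their medians were below the -0.03 of all genes, least so for the 10 spermatid transcription regulators, 7 of them below WT, at -0.13. All 22 tested genes of the acrosome and gamete fusion were below WT (median log2 fold change -0.88), as were all 11 of the spermatid actin-like and calyx list (-0.92), all 6 testis-specific serine kinases (-0.76) and 19 of 20 of the outer dense fibre, fibrous sheath and mitochondrial sheath (-0.84). Of the 12 genes of the CatSper calcium channel of the sperm tail, 9 were below (-0.44). Of all tested genes 54.3% were below WT, and of the genes that rise with age 84.3%. For KO of day 24 against the same WT libraries, the lists of this paragraph gave medians of -0.01 to 0.23. The KO libraries differed widely. *Tmem190*, of the acrosome, was at 2.42, 10.6, 4.28 and 3.28 CPM in KO and at 12.9 and 9.85 CPM in WT (-1.14, SE 0.51, adjusted p = 0.33). *Capza3*, an actin-capping subunit of spermatids, was at 12.6, 40.0, 23.3 and 10.5 CPM in KO and at 54.1 and 43.4 CPM in WT (-1.17, SE 0.59, adjusted p = 0.394). Without KO_d22_2 the value of *Tmem190* was -1.77 and was called (adjusted p = 0.0439). In both, KO_d22_2 was at or near the WT level and KO_d22_1 and KO_d22_4 were lowest or near it.

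The transition proteins, protamines and spermatid linker histones, which package the sperm genome, had a median of -0.89 over 8 tested genes with none called (0.757% of all tested genes were). Their summed CPM was 17.2, 292, 114 and 21.5 in KO, 190 and 199 in WT of day 24 and 9.03 to 19.01 in WT of day 22, so that KO_d22_1 lay within WT of day 22, KO_d22_4 just above it, and KO_d22_2 lay above WT of day 24. *Prm1*, the first protamine, was at 1.69, 65.3, 21.6 and 1.34 CPM in KO and at 34.4 and 47.1 CPM in WT (-0.85, SE 1.01, adjusted p = 0.768). *H1fnt*, a linker histone of spermatids, was at 2.24, 28.9, 10.9 and 4.16 CPM in KO and at 24.2 and 20.3 CPM in WT (-0.94, SE 0.71, adjusted p = 0.593). Without KO_d22_2 the values were -2.32 for *Prm1* and -1.95 for *H1fnt*, neither called. Against WT of day 22 the list's median was 4.10 with 5 of 8 called higher (1.26% of all tested genes were), and WT of day 24 against WT of day 22 gave 4.88 with 8 of 8 called higher (5.88% of all were). KO of day 24 against WT of day 24 went the other way from the main comparison, with a median of 1.61 and none called. The summed CPM in KO of day 24 was 464 and 1170.

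Chromatin factors bear on the question of the study, and none of them was called, where 0.757% of all tested genes were, so that few or no calls in lists of this size are near the background. Over 24 genes of histone variant H3.3 and histone chaperones, HIRA complex included, the median was 0.05 and 9 were below WT, and over 13 histone eviction factors it was -0.05 with 8 below. *H3f3b*, which encodes H3.3, was at 668, 675, 607 and 667 CPM in KO and at 589 and 520 CPM in WT (0.24, SE 0.13, adjusted p = 0.453). *Chd5*, a remodeller of spermatid chromatin, was at 30.01, 119, 68.9 and 38.2 CPM in KO and at 157 and 107 CPM in WT (-1.04, SE 0.50, adjusted p = 0.378). *Nutm1*, the testis-specific partner of p300, was at 23.6 to 40.7 CPM in KO and at 58.1 and 40.8 CPM in WT (-0.67, SE 0.32, adjusted p = 0.368). *Rnf8*, a ubiquitin ligase of histone removal, lay the other way, at 3.69 to 4.83 CPM in KO and at 2.54 and 3.53 CPM in WT (0.55, SE 0.23, adjusted p = 0.293). Genes of the X chromosome had a median of -0.10 over 729 tested, with 1 called lower, beside -0.03 over 16389 autosomal genes with 121 called lower.

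Lists of earlier germ cells had medians on both sides of 0. Synapsis and recombination genes had a median of 0.18 over 24 tested, with 5 below WT, and the list of spermatogonial differentiation and meiotic entry had 0.30 over 10, with 4 below WT. The summed CPM of the second list went the other way, at 515 to 610 in KO and 662 and 624 in WT, and *Dmrtb1*, a transcription factor of differentiating spermatogonia and its most abundant member, was at means of 289 and 363 CPM. *Dmc1*, the meiotic recombinase, was at 23.7 to 28.8 CPM in KO and at 18.9 and 21.3 CPM in WT (0.39, SE 0.21, adjusted p = 0.429). Genes of pachytene and meiotic division (-0.01), undifferentiated spermatogonia (-0.07) and DNA replication (0.02) were near the median of all genes. None of these 5 lists had a call, where 0.757% of all tested genes were called.

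Somatic lists went both ways, with no call outside the collagens, where 0.757% of all tested genes were called. Sertoli cell genes had a median of 0.19 over 22, 4 of them below WT, and Leydig cell genes had 0.45 over 13, 4 of them below WT. The summed CPM of the Leydig list overlapped between the groups, at 609 to 1402 in KO and 756 and 1007 in WT. Its median was 0.74 for KO of day 24 against the same WT libraries. *Insl3*, a hormone of Leydig cells, was at 33.9 to 63.1 CPM in KO and at 20.7 and 27.5 CPM in WT (means 48.2 and 24.1 CPM, adjusted p = 0.379). *Hsd3b1*, an enzyme of steroid synthesis, was at 81.6 to 165 CPM in KO and at 202 and 187 CPM in WT (-0.53, SE 0.24, adjusted p = 0.33). All 11 tested peritubular myoid genes (-0.46) and all 11 endothelial genes (-0.58) were below WT. *Kdr*, the VEGF receptor of endothelium, was at 4.89 to 8.23 CPM in KO and at 12.2 and 16.98 CPM in WT (-1.18, SE 0.29, adjusted p = 0.0579), and its 4 KO libraries were below all 12 WT libraries. Macrophage genes (0.01), cholesterol synthesis (-0.01), genes of the Y chromosome (0.07) and mitochondrially encoded genes (-0.08) were near the median of all genes, and the immediate-early and heat shock list gave -0.12. KO_d22_4 was lowest in summed CPM of the Leydig, peritubular, endothelial, collagen and macrophage lists.

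**Figure D4:**
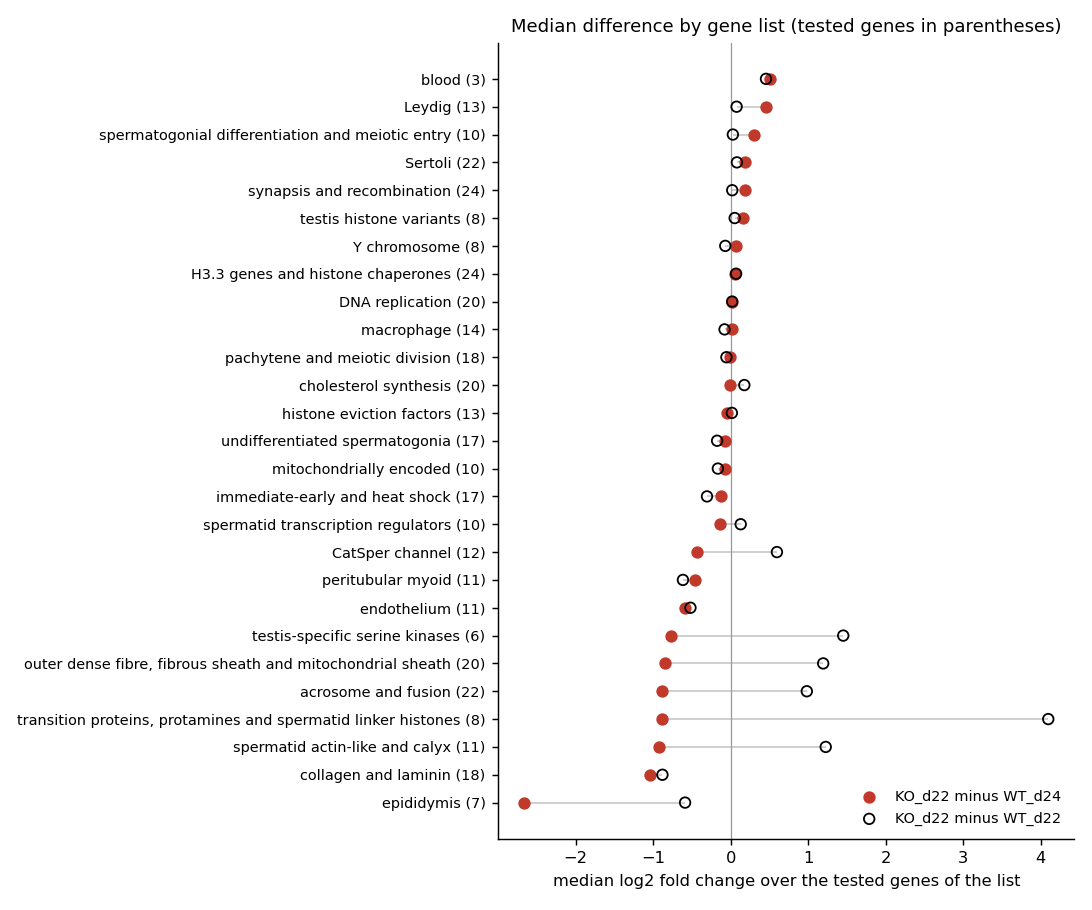
Median log2 fold change over the tested genes of 27 gene lists (number tested in parentheses), for KO_d22 minus WT_d24 (red) and for the same KO libraries minus WT_d22 (open circles). The 6 lists of spermatid structure, channel and packaging genes lie below zero against WT_d24 and above zero against WT_d22, while the collagen, endothelial and peritubular lists lie below zero against both.

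The number of calls moved with single libraries. Leaving out each of the 24 in turn gave 21 to 385 called genes, the fewest without WT_d24_2 and the most without KO_d22_2, the KO library placed nearest to WT day 24. Without KO_d22_4, KO_d22_3 or KO_d22_1 there were 49, 72 and 217, and without WT_d24_1 there were 222. Libraries outside the 6 moved the count as well, with 204 calls without WT_d20_2, 86 without WT_d22_2 and 77 without either KO library of day 26. Of the 130 genes, 20 were called the same way in all 24 fits, all of them lower: *Atad2*, *Asb4*, *Grin2b*, *Scn3a*, *Cilp*, *Arfgef3*, *Mdga2*, *Grik2*, *Ptpro*, *Tnc*, *Lyve1*, *Snord104*, *Snord32a*, *Sycp1-ps1*, *Gm7694*, *A330076C08Rik*, *4933406K04Rik*, *4930522O17Rik*, *6430710C18Rik* and *1700047M11Rik*. For scale, KO of day 22 against WT of day 22 called 431 genes (2.51%), 217 higher (1.26%) and 214 lower (1.25%), and KO of day 24 against WT of day 24 called 15 (0.0874%), 3 higher (0.0175%) and 12 lower (0.0699%).

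**Figure D5:**
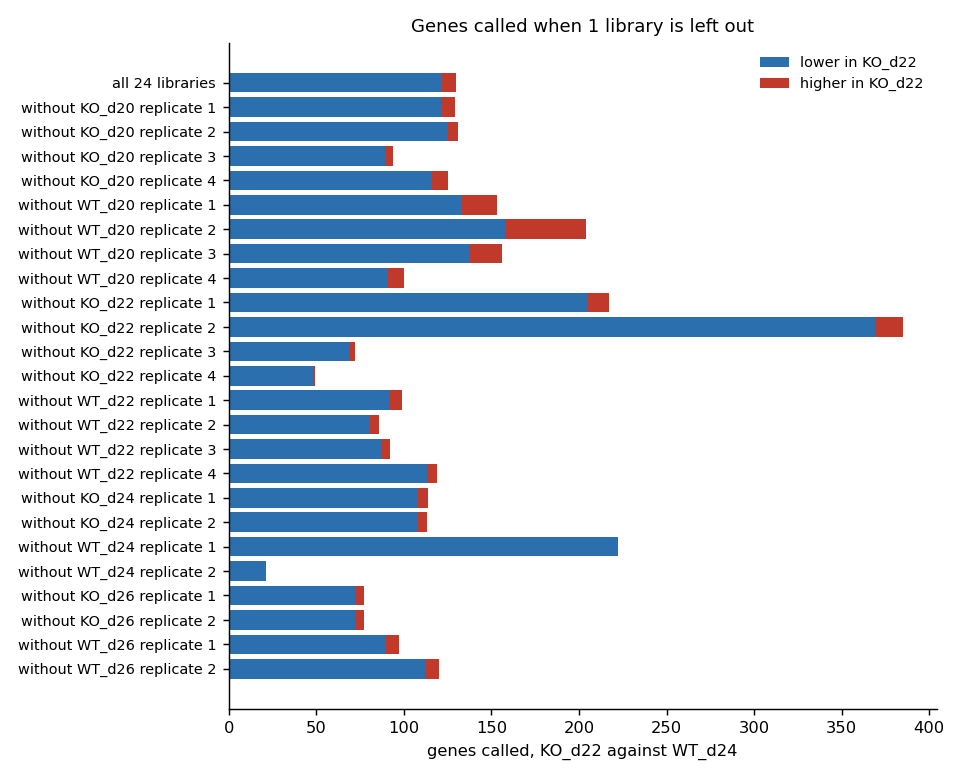
Number of genes called between KO_d22 and WT_d24 (horizontal axis, stacked bars: blue, lower in KO_d22; red, higher) with all 24 libraries and with any 1 of them dropped. The bars run from 21 genes without WT_d24 replicate 2 to 385 without KO_d22 replicate 2, against 130 with all libraries.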

How the data were processed

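The authors sequenced ribosome-depleted, strand-specific total RNA of testes as read pairs, aligned them to mm10 with STAR 2.7.11b and counted pairs within exons with HTSeq, using the strand and dropping pairs with several alignments. The deposited tables, 1 for each library, hold unnormalised read-pair counts by gene symbol, and no replicates were pooled. Which gene models were used is not given in the sources used here. Each table held 24456 genes and 5 tallies, which stayed out of library sizes and tests. In the 6 libraries pairs outside exons were 47.4% to 54.8%, with several alignments 4.74% to 8.74%, and ambiguous 0.163% to 0.197% of a table.

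These counts went into edgeR 4.0.16 (R 4.3.3, limma 3.58.1), by its quasi-likelihood test, after TMM scaling and filterByExpr (minimum count 10), with 1 coefficient for each of 8 groups over all 24 libraries, because WT of day 24 has 2. The labels give 4 libraries per genotype at day 20, more than the methods text states, and all were used. Tests were two-sided, with Benjamini-Hochberg adjustment over 17170 genes and calls at an adjusted p under 0.05. CPM are TMM-scaled. The age axis used log2 CPM with a prior count of 2. The floor of a group was 3 counts per library, 0.177 to 0.209 CPM here, which covers counting error only. Symbols were placed by GENCODE M21 on mm10 (23386) or RefSeq (971), and 99 were not placed. On simulated counts for this comparison over 17170 genes with 200 changed, 65% of genes with a log2 fold of 1 and 91% with 2 were recovered, and 6.59% of calls were false. The changed genes averaged over 1 CPM, and every other gene had the same mean in all 24 libraries. The simulation held no age difference and no library that stands apart, so these rates need not hold for the real libraries.

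Besides *Atad2*, the text names the 10 called genes with the largest fold in each direction whose groups do not overlap and whose higher group averages at least 2 CPM, the 3 largest Gm or Rik symbols, and, as examples of a list, members among its 4 with the smallest p. Other names were chosen after their values were seen. The comparison, its members and the 28 lists were chosen with earlier results of these data known. Alternatives were DESeq2 1.42.0, RLE size factors, no filter, the replicate number as a block, the 2 groups alone and each library left out.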

Additional observations from a re-analysis of the deposited data

Results flagged for a closer look

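Among the 4 KO libraries of day 22, 110 values (library tallies, age position, summed list levels and named genes) were examined for a library far from the other 3, and 14 had one by Dixon's test at its 95% critical value. Chance alone gives about 1 in 20. KO_d22_4 had 4.74% of pairs with several alignments. KO_d22_1 stood apart by the summed CPM of the epididymis list (134.9), and by CPM of *AY761185* (0.787), *Adrb3* (0.0605), *Spink11* (0.908), *Col14a1* (22.03), *Fbln2* (3.39), *Scn3a* (0.908) and *Snord104* (1.15), and it was the highest KO library in each. KO_d22_2 stood apart by *4933406K04Rik* (1.38 CPM), *1700047M11Rik* (2.405 CPM) and *Sycp1-ps1* (1.80 CPM), all highest there. KO_d22_3 was lowest for *A330076C08Rik* (0.725 CPM) and *H3f3b* (607 CPM). For the genes called lower, the outlying KO library still lay below both WT libraries of day 24, except at *AY761185* and *Adrb3*, where WT_d24_1 had no count.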

How the results depend on the processing

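The count of 130 called genes (122 lower, 8 higher) was 293 with DESeq2 (240 lower, 53 higher), 16 with the 2 groups alone (all 16 lower, 0 higher), and 39 (38 lower, 1 higher) with WT_d20_2, KO_d22_4 and WT_d24_2 left out together, a setting chosen after seeing the data. Without the filter 5 genes were higher. With the replicate block 190 were called, 21 of them higher, and 102 of the 130 were shared. Only 2 numbers are shared by the groups, and same-numbered libraries deviated in opposite ways (r = -0.48 and -0.25), so the numbers were not taken as pairs. RLE size factors gave 126 calls, 124 of them shared. Leaving out 1 library gave 21 to 385 calls, 21 to 369 lower and 0 to 46 higher.

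KO against WT of day 22 (431 genes) gave 738 with DESeq2, 235 with the replicate block, 69 with the 2 groups alone and 60 to 858 with 1 library left out. WT of day 24 against WT of day 22 (1017) gave 657 with the replicate block, 1561 with the 2 groups alone and 171 to 1196. KO against WT of day 24 (15) gave 41 with DESeq2, 8 without the 3 libraries and 0 to 24. The causes were not tested.

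The difference in age position was -0.25 to -0.13 with 1 library left out, and with 4 libraries against 2 no permutation p can pass 0.05. Genes with all KO libraries above every WT library numbered 14 to 56 (14 with all), and below 104 to 287 (103 with all). Of 76 named genes, 61 were called. A sign change occurred at 3: *AY761185* ranged from -12.16 to 4.70 with 1 library left out, the highest without WT_d24_2, and gave 5.07 without the 3 libraries, *Adrb3* ranged from -7.61 to 1.56 and gave 1.82, and *Spink11* ranged from -11.2 to 4.90 and gave 5.27, each with no count in WT_d24_1, so these values depend on the prior count. The snoRNA calls ranged from 2 to 12 with 1 library left out, the most without WT_d20_2. Both WT libraries of day 24 enter every call, and genes below about 0.2 CPM were near the floor.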

Other observations

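Several lower genes outside the lists gave values of interest. *Fcgr3*, a low-affinity Fc receptor, was at 26.1 to 28.6 CPM in the 4 KO libraries and at 55.5 and 57.8 CPM in WT of day 24, a spread within groups much smaller than the gap between them (log2 fold change -1.04, SE 0.22, adjusted p = 0.0251, edgeR). The macrophage list, which does not hold it, had a median of 0.01. *Lyve1*, a hyaluronan receptor of lymphatic vessels and some macrophages, was at 1.21 to 2.12 CPM in KO and at 6.76 and 5.23 CPM in WT (-1.83, SE 0.29, adjusted p = 0.00264). The imprinted genes *H19* (-1.37, adjusted p = 0.0307) and *Dio3* (-2.22, adjusted p = 0.0203) were called lower, and KO of day 24 against the same WT libraries gave -1.29 and -2.13, with neither called there. Against WT of day 22 they gave -1.27, called, and -1.19, not called, and at day 26 *H19* gave -0.31 and *Dio3* 0.40.

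*Loxhd1*, known from hair cells of the inner ear, was at 1.85 to 3.03 CPM in KO and at 7.26 and 8.29 CPM in WT (-1.62, SE 0.24, adjusted p = 0.00131), and it gave -1.36 at day 20 and -1.11 at day 26. *Thsd7a*, an endothelial membrane protein, gave -1.78 here, -1.73 at day 20 and -0.98 at day 26. *Sycp1-ps1*, a pseudogene of the synaptonemal complex gene *Sycp1*, was at 0.603 to 1.80 CPM in KO and at 6.95 and 4.14 CPM in WT, and its counts are uncertain because of its parent.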
